A study of Mus musculus with 16 samples.

Results

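The miRNAs mmu-miR-9, mmu-miR-9*, mmu-miR-124, mmu-miR-128 and mmu-miR-132 (below without the prefix for mouse), which are best known from neurons, were followed through mouse sciatic nerves that lacked the miRNA-processing enzyme Dicer in Schwann cells. They were taken by their names on the array, and all 10 probes of these 5 names were used, out of 1857 probes and 650 names. The nerves came from 4 groups of 4 mice, each mouse on its own Agilent mouse miRNA array. Mutants were Dicer fl/fl Dhh-Cre+ and controls Dicer wt/fl Dhh-Cre+, at embryonic day 17 (E17) and at postnatal day 4 (p4), so both genotypes carried Cre and the controls carried 1 floxed allele. The labels name the strain Dicer1tm1Bdh/J, which is the floxed line, and the mice were offspring of its cross with Dhh-Cre mice. Per the methods, 4 littermate pairs of mutant and control were used at each age, but the labels do not say which mice shared a litter. The Dhh promoter is active in the Schwann cell lineage. The paper expected Dicer to be lost in Schwann cells only, which was not tested here for axons, fibroblasts, vessels or blood cells. The arrays do not measure Dicer mRNA, and the genotypes are taken from the labels. Values are log2 median spot intensities after quantile normalization, and these intensities still contain the background of the array. Groups were compared by limma over 681 probes of the 281 miRNAs that counted as expressed, among them all 5 described here. A probe was called where its Benjamini-Hochberg adjusted p did not exceed 0.05 and its log2 difference reached 0.5 in either direction.

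A miRNA is cut by Dicer out of a short hairpin RNA, which leaves a duplex of both arms. One strand of the duplex is loaded into an Argonaute protein and represses mRNAs that match its seed, bases 2 to 8. miR-9 and miR-9* are the opposite arms of the same hairpins and are abundant in neural progenitors and neurons. miR-124 is the classic neuronal miRNA of the brain, which represses mRNAs of other cell types. miR-128 is enriched in the brain, and miR-132 is induced by neuronal activity through the transcription factor CREB. In a nerve the neuronal cell bodies lie outside the dissected tissue, and only their axons run through it.

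Mature sequences of 4 of the 5 miRNAs were found in RefSeq (GRCm38.p6) and are shown because the seeds show which members could share targets. The seed is in capitals. miR-212, which neighbours miR-132 in the genome, and miR-27b are added for comparison.
miR-9: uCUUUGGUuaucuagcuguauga
miR-9*: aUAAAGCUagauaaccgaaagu
miR-128: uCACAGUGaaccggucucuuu
miR-132: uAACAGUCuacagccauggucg
miR-212: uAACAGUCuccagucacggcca
miR-27b: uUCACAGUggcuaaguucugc
The 4 seeds differed from each other. The seed of miR-132 was that of miR-212, and no other mature mouse sequence of the table had the seed of miR-9, miR-9* or miR-128. The letters of the miR-128 seed recurred one base further in, at bases 3 to 9, in miR-27a and miR-27b.

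The mature miR-9 and miR-9* sequences were the same in all 3 of their genes, so no probe can tell the genes apart. The hairpins are shown because both arms, in capitals, were measured here.
Mir9-1: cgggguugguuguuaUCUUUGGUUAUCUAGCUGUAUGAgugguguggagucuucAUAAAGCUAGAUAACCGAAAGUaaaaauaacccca
Mir9-2: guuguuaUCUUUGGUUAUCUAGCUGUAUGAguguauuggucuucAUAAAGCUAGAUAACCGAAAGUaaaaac
Mir9-3: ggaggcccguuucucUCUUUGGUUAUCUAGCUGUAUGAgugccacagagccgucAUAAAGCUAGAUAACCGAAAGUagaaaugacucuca
They lie on the plus strand at chr3:88215598-88215686, chr13:83738814-83738885 and chr7:79505264-79505353, each within the bounds of a long non-coding RNA gene (Gm3764, C130071C03Rik and Mir9-3hg). The arms of each hairpin were identical between the genes and the loops between them differed, at 16, 14 and 16 bases. miR-128 comes from Mir128-1 at chr1:128202361-128202430 on the plus strand, within R3hdm1, and from Mir128-2 at chr9:112118636-112118711 on the minus strand, within Arpp21. Mir132 lies at chr11:75173682-75173747 on the plus strand, with Mir212 less than 1000 bases away. Whether these host positions are exonic or intronic was not determined.

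In p4 nerves, miR-9 and miR-9* fell in the mutants, and no member was called higher. These were 2 of 5 members, against 21% of the 281 miRNAs called in either direction and 10.7% called lower. At the adjusted p alone, 4 of 5 members passed on at least 1 probe (miR-9 and miR-9* lower, miR-124 and miR-132 higher), against 59.8% of all miRNAs. The median difference over the 5 members was 0.10 on the log2 scale, against 0.06 over all 281. Over all miRNAs the calls split into 29 higher and 30 lower, but into 1 and 89 without normalization between arrays, 6 and 124 for the background-subtracted signal without scaling and 106 and 66 for that signal scaled to its 75th percentile, so the direction of a small difference at p4 depends on the scaling. Summed over all miRNAs, the background-subtracted signal was 51.3% of the control level in p4 mutants (log2 difference -0.96, exact two-sided permutation p = 0.0286, the smallest that 70 assignments allow). At E17 it was 88.7% of the control level (exact permutation p = 0.400).

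**Figure D1:**
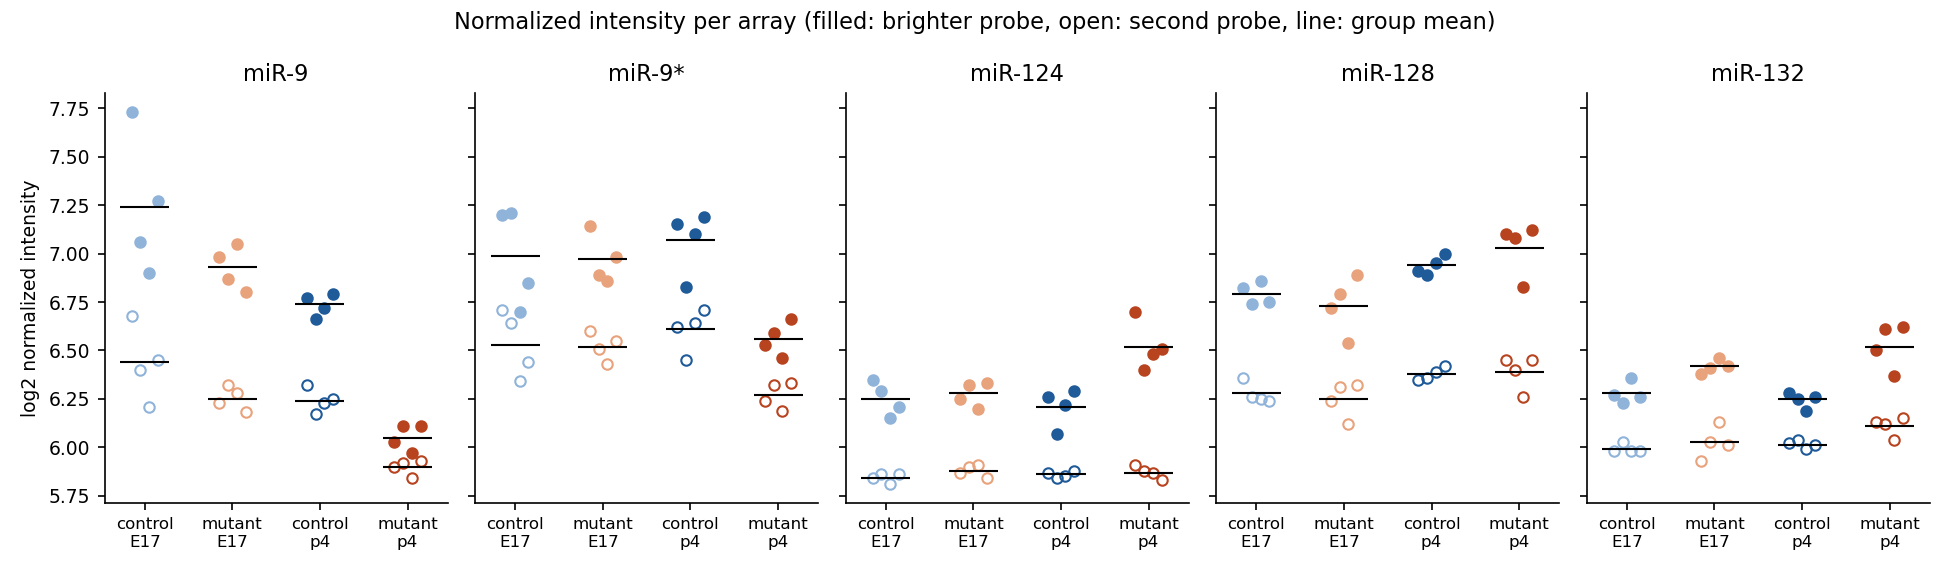
Log2 normalized intensity (vertical axis) of both probes of each miRNA on each of the 16 arrays, by group. Filled points are the brighter probe, open points the second probe and lines group means; the 4 p4 mutants of miR-9 lie between 5.97 and 6.11 on the brighter probe, below every other array.

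miR-9 was lower in the p4 mutants and was not detected in them. On the brighter of its probes, the log2 normalized intensity in the p4 controls was 6.77, 6.66, 6.72 and 6.79. In the p4 mutants it was 6.03, 6.11, 5.97 and 6.11. The groups did not overlap, and the probe was well above background on all 4 control arrays and on none of the mutant arrays. The fitted log2 difference was -0.68 (SE 0.129, limma adjusted p = 0.00060), with a 95% interval from -0.96 to -0.40. Because the mutants give only an upper bound on their level, the group means put miR-9 at least 1.37-fold lower, without sampling error. The second probe gave -0.34 (SE 0.0734, limma adjusted p = 0.0015), under the size limit, and was also not well above background in any p4 mutant. Its bound, made the same way, was under 1-fold, so that probe sets no least fall.

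The background-subtracted signal of Feature Extraction, summed over the probes of a miRNA and not scaled between arrays, showed the same fall on a wider scale. It was 61.1, 64.5, 59.7 and 58.4 in the p4 controls. In the p4 mutants it was 4.1, 6.4, 1.4 and 5.4, and the software did not detect miR-9 on any of these arrays. It detected miR-9 on all 12 other arrays. With this signal in the fit, scaled to the 75th percentile of each array, the log2 difference of the brighter probe was -2.81 (limma adjusted p = 1.3e-06), and with a higher floor for dim values -1.90, so the size depended on the background and on a floor chosen with the values seen. With normexp background correction it was -0.47 (limma adjusted p = 0.00087), under the size limit, so the call was lost and the direction was not.

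miR-9 at E17 was already variable among the controls. The E17 controls stood at 7.73, 7.06, 6.90 and 7.27 and the E17 mutants at 6.98, 6.87, 7.05 and 6.80, so the genotypes overlapped. The log2 difference between the genotypes was -0.31 (SE 0.129, limma adjusted p = 0.131). The control of replicate 1 was the highest of all 16 arrays, and without it the difference was -0.15.

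From E17 to p4, miR-9 fell in both genotypes on the normalized scale, although in the controls the sign turned without normalization or without scaling. In the controls the log2 difference was -0.50 on the brighter probe (SE 0.129, limma adjusted p = 0.0070), with no overlap between the ages. The second probe gave -0.20 (SE 0.0734, limma adjusted p = 0.0459), under the size limit, and its ages overlapped. miR-9 was the 1 of 5 members called here, against 20.3% of all miRNAs in either direction and 12.1% lower. The call rests on a value at the size limit: without the E17 control of replicate 1 the difference was -0.34, without that of replicate 4 it was -0.49, and it also dropped under the limit without the p4 control of replicate 2 or 3 (-0.48 and -0.50). By the methods' t-test miR-9 did not pass the adjusted p in this comparison. Without normalization the sign turned to 0.15, where the median over all probes was 0.42. For the background-subtracted signal without scaling it was 0.10, where that median was 0.74. The signals themselves overlapped, from 27.7 to 96.9 at E17 and from 58.4 to 64.5 at p4.

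In the mutants miR-9 fell by 0.87 on the log2 scale from E17 to p4 (SE 0.129, limma adjusted p = 0.00017), with a 95% interval of the difference from -1.15 to -0.59. By the group means it was at least 1.56-fold lower, without sampling error. The second probe gave -0.36 (SE 0.0734, limma adjusted p = 0.0026), and its bound was under 1-fold. miR-9 was the 1 of 5 members called here, against 10.7% of all miRNAs in either direction and 7.47% lower. The fall was also called on each scale tried and without each array in turn, where it ranged from -0.91 to -0.83. By normalized intensity the groups ran in the order E17 controls, E17 mutants, p4 controls and p4 mutants, of which the first pair did not pass the test. By background-subtracted signal the middle pair was turned, with the p4 controls (58.4 to 64.5) above the E17 mutants (29.3 to 46.5). That pair differs in genotype and age together and was not tested. All p4 arrays were on 1 slide and all E17 arrays on the other, so age and slide cannot be told apart, whereas both genotypes shared each slide.

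miR-9*, the opposite arm, fell in the p4 mutants too. The brighter probe stood at 7.15, 6.83, 7.10 and 7.19 in the p4 controls and at 6.53, 6.59, 6.46 and 6.66 in the p4 mutants, without overlap. It was well above background on all 16 arrays, so here both groups have a measured level. The log2 difference was -0.50 (SE 0.113, limma adjusted p = 0.0021) on this probe and -0.34 (SE 0.0760, limma adjusted p = 0.0024) on the second one. The larger difference sits at the size limit, and leaving out any 1 of 5 arrays (p4 mutants of replicate 1 or 3, p4 controls of replicate 1, 3 or 4) gave -0.49 to -0.46, which was not called, with adjusted p-values from 0.0067 to 0.0084. With normexp background correction it was -0.35 (limma adjusted p = 0.0023) and was not called.

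The background-subtracted signal of miR-9* was 110.3, 96.6, 122.9 and 117.5 in the p4 controls. It was 30.1, 38.7, 26.3 and 40.2 in the p4 mutants. Every mutant array was thus well below every control array, and miR-9* was still detected on all of them.

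For miR-9*, neither the genotypes at E17 nor the ages of the controls passed the test. Between the genotypes at E17 its log2 difference was -0.02 (SE 0.113, limma adjusted p = 0.911), with a 95% interval from -0.27 to 0.22. From E17 to p4 it was 0.08 in the controls (limma adjusted p = 0.643) and -0.40 in the mutants (SE 0.113, limma adjusted p = 0.0165), the latter under the size limit. By signal, the p4 controls (96.6 to 122.9) were above all E17 controls (24.9 to 68.7). On that unscaled signal the log2 difference between the ages of the controls was 1.18 (limma adjusted p = 0.0016), where the median over all probes was 0.74.

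**Figure D2:**
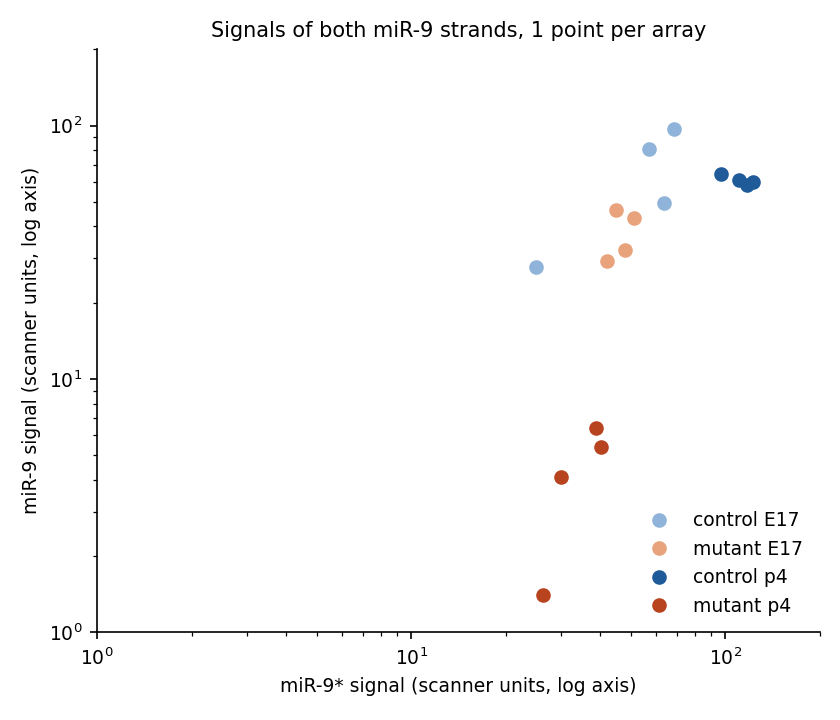
Background-subtracted signal of miR-9 (vertical, log axis) against that of miR-9* (horizontal, log axis), in scanner units, 1 point per array. The 4 p4 mutants lie apart, with miR-9 between 1.4 and 6.4 and miR-9* between 26.3 and 40.2, while the E17 groups and the p4 controls have miR-9 at 27.7 or more.

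Within each array, the log2 ratio of the miR-9 signal to the miR-9* signal was also taken, a measure chosen after the values were seen and given without a test. Its level depends on the probes and only its differences between groups are of interest. It was 0.20 ± 0.405 (SD, n = 4) in the E17 controls and -0.32 ± 0.285 in the E17 mutants. It was -0.87 ± 0.209 in the p4 controls. No ratio is given for the p4 mutants, because miR-9 was not detected there, and whether the arms fell by the same factor was not tested.

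miR-124 was dim in all groups. Its brighter probe stood at 6.26, 6.07, 6.22 and 6.29 in the p4 controls, with 1 of 4 arrays well above background. In the p4 mutants it stood at 6.70, 6.40, 6.48 and 6.51, well above background on all 4. The groups did not overlap, and the log2 difference of 0.31 (SE 0.0654, limma adjusted p = 0.0014) passed the p limit and not the size limit. The second probe of miR-124 was well above background on none of the arrays and gave 0.01 (limma adjusted p = 0.778), with a 95% interval from -0.04 to 0.06.

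The background-subtracted signal of miR-124 was 12.6, 6.6, 11.3 and 13.3 in the p4 controls and 25.5, 15.5, 16.6 and 17.4 in the p4 mutants, also without overlap. At E17 it was 10.3, 8.2, 2.8 and 10.8 in the controls and 5.7, 12.1, 9.6 and 7.7 in the mutants, which overlapped. Here miR-124 was thus not lower in mutants even on the scale on which the total of all miRNAs was lower. Scaled to the 75th percentile the p4 difference was 1.44 (limma adjusted p = 0.00071) and was called; without scaling it was 0.66 (limma adjusted p = 0.117) and was not.

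Between the genotypes at E17 the log2 difference of miR-124 was 0.03 (limma adjusted p = 0.827), with a 95% interval from -0.11 to 0.17. From E17 to p4 it was -0.04 in the controls (limma adjusted p = 0.711) and 0.24 in the mutants (SE 0.0654, limma adjusted p = 0.0136), where 1 of 4 E17 arrays was well above background. By the brighter probe the p4 mutants were the highest group, and the other 3 groups were not separated by any test made here. The second probe, well above background on no array, gave -0.01 between the ages of the mutants (limma adjusted p = 0.876).

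miR-128 was well above background on 15 of 16 arrays by its brighter probe. By its second probe it was so on 1 of 4 arrays in each E17 group, 4 of 4 p4 controls and 3 of 4 p4 mutants. The brighter probe stood at 6.91, 6.89, 6.95 and 7.0 in the p4 controls and at 7.10, 7.08, 6.83 and 7.12 in the p4 mutants. The mutant of replicate 3 was below all controls and the other 3 mutants above them. The log2 difference was 0.10 (SE 0.0726, limma adjusted p = 0.308), with a 95% interval from -0.06 to 0.25. The second probe gave 0.01 (limma adjusted p = 0.927).

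The background-subtracted signal of miR-128 was 74.4, 94.2, 86.5 and 82.0 in the p4 controls. It was 62.8, 69.3, 45.0 and 70.1 in the p4 mutants, all of them below the controls. Without scaling the log2 difference of the brighter probe was -0.47 (limma adjusted p = 0.0707), and scaled to the 75th percentile it was 0.32 (limma adjusted p = 0.0143), so its sign at p4 depends on whether arrays are brought to a common level. Neither was called.

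At E17 the genotypes overlapped for miR-128, with 6.82, 6.74, 6.86 and 6.75 in the controls and 6.72, 6.79, 6.54 and 6.89 in the mutants. The log2 difference was -0.06 (limma adjusted p = 0.685). From E17 to p4 it was 0.14 in the controls (SE 0.0726, limma adjusted p = 0.134) and 0.30 in the mutants (SE 0.0726, limma adjusted p = 0.0080), the latter under the size limit. On the second probe these were 0.10 (limma adjusted p = 0.131) and 0.14 (limma adjusted p = 0.0570), and neither passed. By the methods' t-test miR-128 did pass the adjusted p between the ages of the controls on at least 1 probe, under the size limit. The unscaled signal did not overlap between the ages within either genotype, with 27.1 to 45.4 at E17 against 74.4 to 94.2 at p4 in the controls and 25.1 to 39.4 against 45.0 to 70.1 in the mutants. On that scale most miRNAs rose in the controls, where 188 of 281 were called higher and the median over all probes was 0.74. In the mutants 120 were called higher and the median was 0.39. The share of all miRNAs without overlap was not counted.

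miR-132 was dim as well, with its brighter probe well above background on 1 of 4 arrays in each E17 group and on 3 of 4 in each p4 group. It stood at 6.28, 6.25, 6.19 and 6.26 in the p4 controls and at 6.50, 6.61, 6.37 and 6.62 in the p4 mutants, without overlap. The log2 difference of 0.28 (SE 0.0483, limma adjusted p = 0.00031) passed the p limit and not the size limit. Scaled to the 75th percentile of the background-subtracted signal it was 1.24 (limma adjusted p = 3.2e-06) and was called, and without scaling it was 0.45 (limma adjusted p = 0.171). It dropped to 0.19 (limma adjusted p = 0.0604) when spots marked as outliers were kept, and to 0.17 (limma adjusted p = 0.222) in the intensities that the authors deposited. The second probe, on no array well above background, gave 0.10 (limma adjusted p = 0.0503).

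At E17 the miR-132 controls stood at 6.27, 6.23, 6.36 and 6.26 and the mutants at 6.38, 6.41, 6.46 and 6.42, without overlap. That difference of 0.14 (SE 0.0483) was under the size limit and missed the p limit, at a limma adjusted p of 0.0865. The second probe gave 0.04 at E17 (limma adjusted p = 0.619), and its genotypes overlapped. The background-subtracted signals at E17 overlapped too, from 8.98 to 15.5 in the controls and from 10.3 to 23.9 in the mutants. From E17 to p4 the log2 difference was -0.03 in the controls (limma adjusted p = 0.643) and 0.11 in the mutants (limma adjusted p = 0.119). The background-subtracted signal ran from 14.3 to 23.9 in the p4 controls and from 17.9 to 32.6 in the p4 mutants and overlapped. Between the ages of the controls the sign depended on the scale, with -0.53 (limma adjusted p = 0.0030) after scaling to the 75th percentile and 0.70 (limma adjusted p = 0.0198) without scaling. The medians over all probes were -0.15 and 0.74 on these scales.

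**Figure D3:**
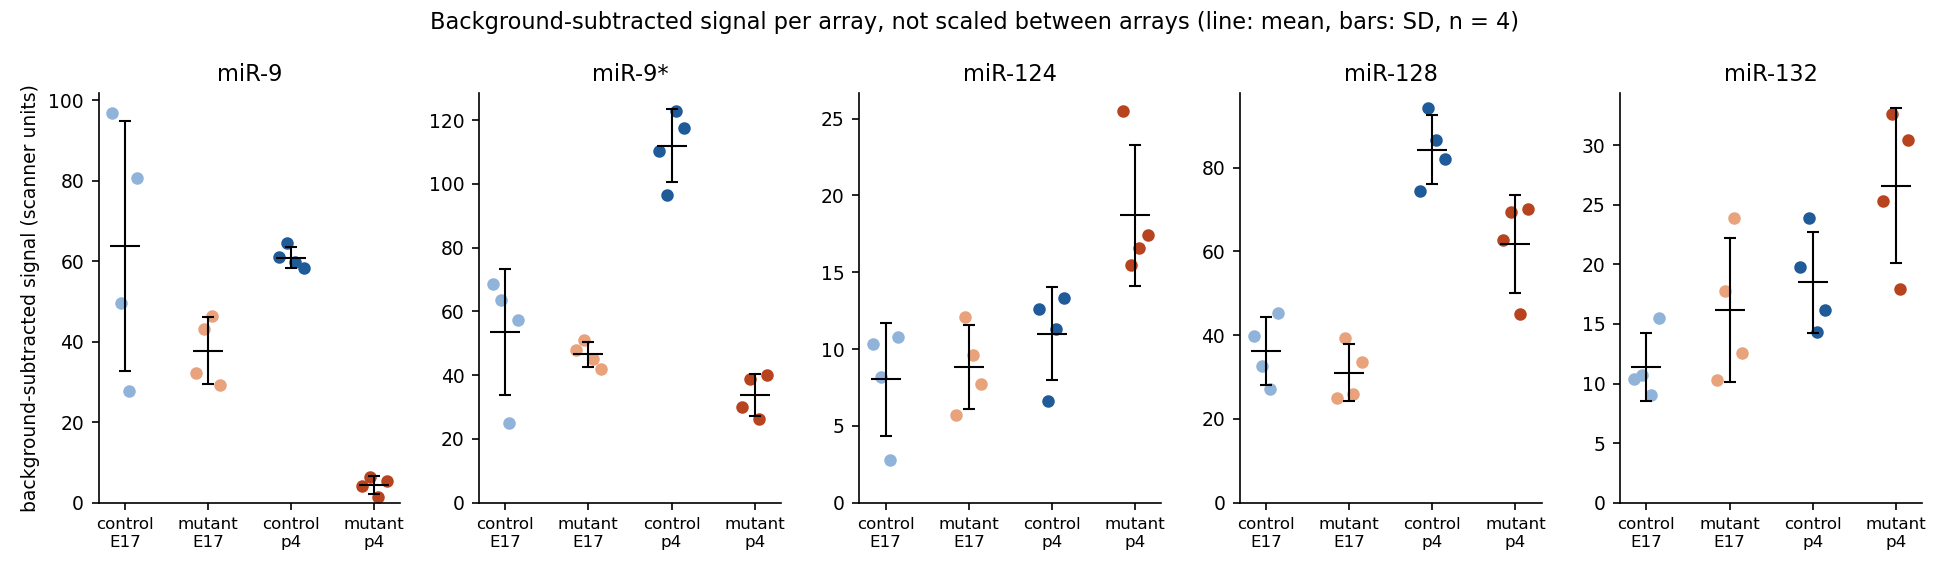
Background-subtracted signal (vertical axis, scanner units, not scaled between arrays) of each miRNA on each array, by group; points are arrays, and the black line and bars are mean and SD (n = 4). At p4, miR-9, miR-9* and miR-128 are below the controls on all 4 mutant arrays, miR-124 is above them on all 4, and miR-132 overlaps. On this scale the total of all miRNAs in p4 mutants was 51.3% of controls. With this signal in the fit, 6 of 281 miRNAs were called higher and 124 lower. The share of all miRNAs without overlap was not counted.

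At E17 no member was called between the genotypes, against 6.05% of all miRNAs. By limma, miR-9 and miR-132 were the 2 members at an unadjusted p under 0.05, against 111 of all 281 miRNAs. By the methods' t-test miR-132 was the only 1, against 117 of all 281. The median difference over the members was -0.02 on the log2 scale, against 0.00 over all miRNAs. Scaled to the 75th percentile, miR-132 was called higher in the E17 mutants (0.55, limma adjusted p = 0.0106).

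**Figure D4:**
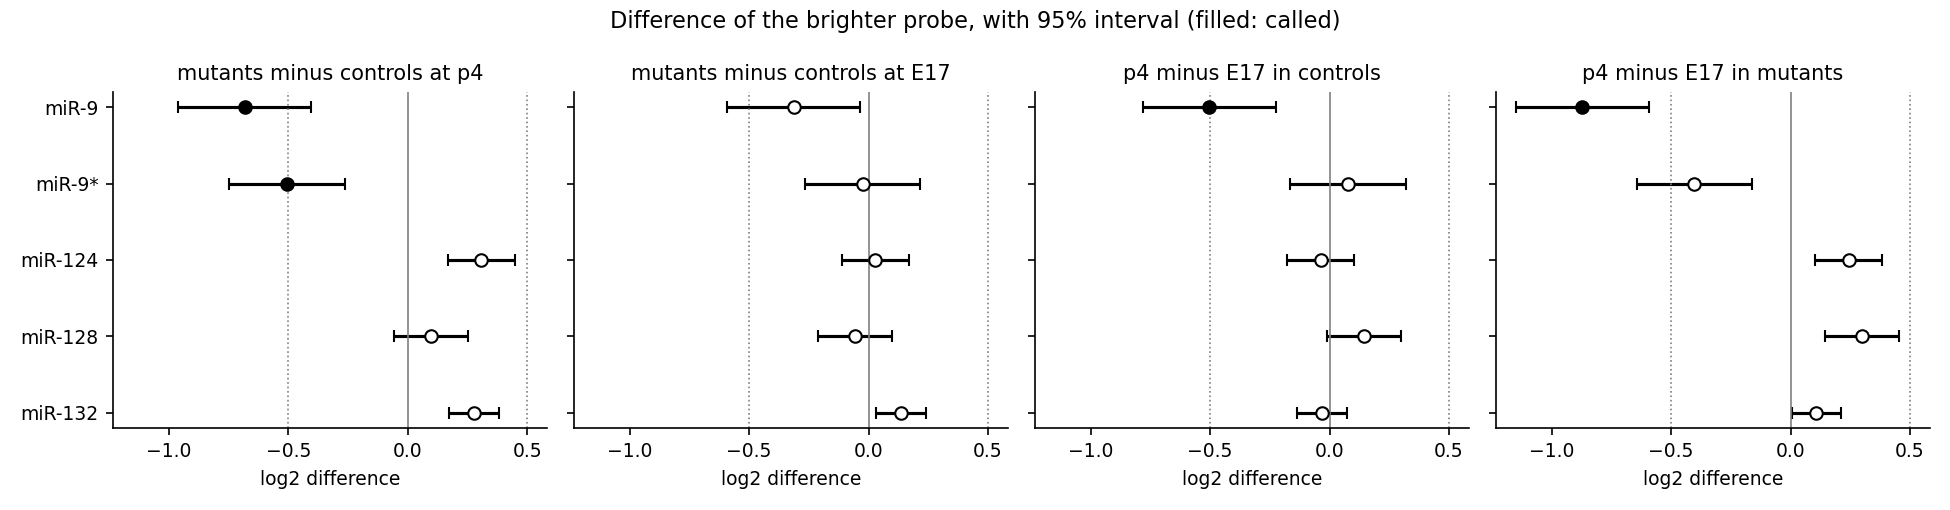
Log2 differences of the brighter probe of each miRNA (horizontal axis) with 95% intervals in the 4 comparisons; filled points were called and dotted lines mark the size limit of 0.5. Called points are miR-9 and miR-9* at p4 between genotypes (-0.68 and -0.50) and miR-9 between ages in mutants (-0.87) and, with a sign that turns without normalization, in controls (-0.50).

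The effect of the mutation at p4 was set against that at E17 in the same fit. No member was called for this difference, against 9.61% of all miRNAs. It was -0.37 for miR-9 (SE 0.183, limma adjusted p = 0.211) and -0.48 for miR-9* (SE 0.159, limma adjusted p = 0.0581). For miR-124 it was 0.28 (SE 0.0925, limma adjusted p = 0.0561). By limma miR-9* and miR-124 were the 2 members at an unadjusted p under 0.05, against 110 of all 281 miRNAs. Without the E17 control of replicate 1, both miR-9 (-0.53, limma adjusted p = 0.0048) and miR-9* (-0.55, limma adjusted p = 0.0335) were called, and miR-9* was also called without the E17 control of replicate 2 (-0.55) or the p4 control of replicate 2 (-0.56). Over all 281 miRNAs the calls without these arrays were 35, 26 and 37 in that order, against 27 with every array. A fall of either arm at p4 beyond that at E17 was thus not established on the normalized scale. On other scales members were called, where calls over all 281 miRNAs were 93 when scaled to the 75th percentile and 72 without scaling. Scaled to the 75th percentile of the background-subtracted signal it was -0.99 for miR-9* (limma adjusted p = 0.0316), 1.21 for miR-124 (limma adjusted p = 0.0412) and 0.69 for miR-132 (limma adjusted p = 0.0117). Without scaling it was -1.63 for miR-9* (limma adjusted p = 0.0063), and 0.57 for miR-124 (limma adjusted p = 0.448), which was not called. miR-9 was called on both, but its size there (-2.33 scaled, -1.43 scaled with the higher floor and -2.97 without scaling) is set by a floor chosen with the values seen, since it was not detected in the p4 mutants.

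**Figure D5:**
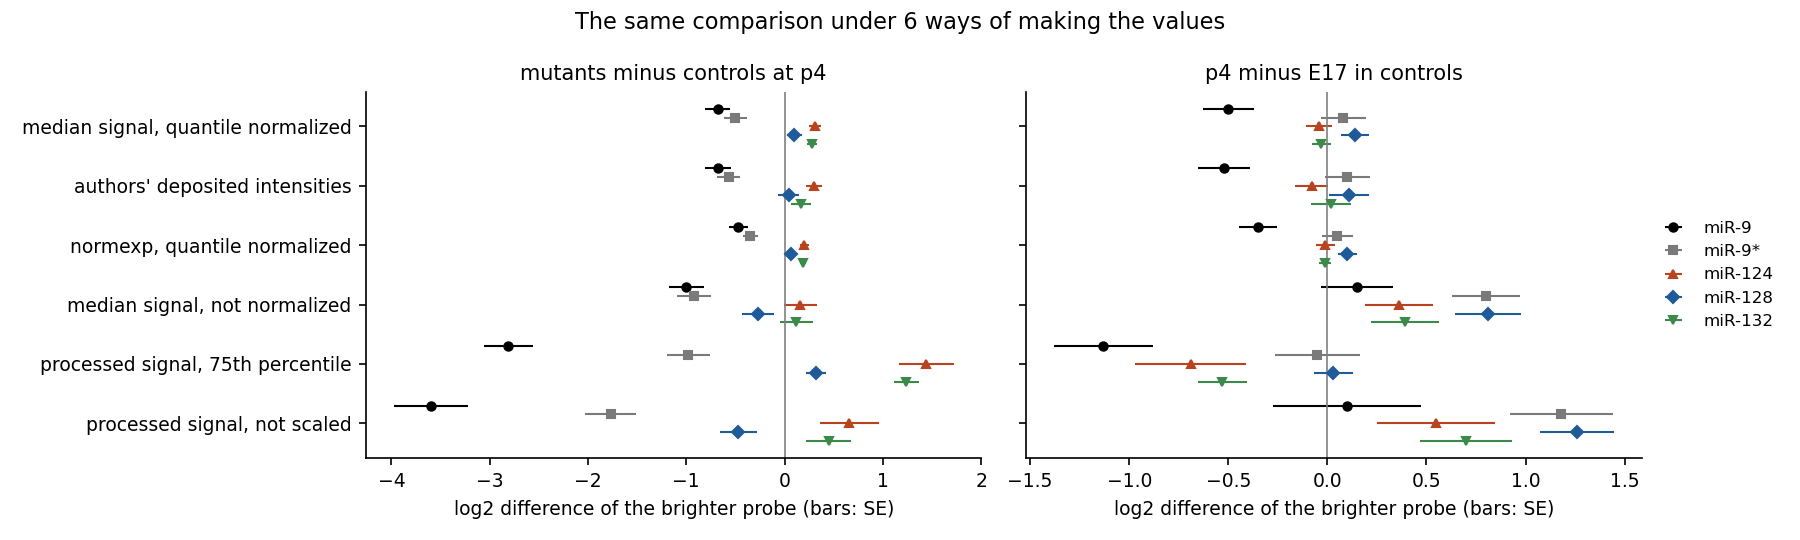
Log2 difference of the brighter probe (horizontal axis, bars SE) of each miRNA at p4 between genotypes and in controls between ages, under 6 ways of making the values (vertical axis). At p4 miR-9 and miR-9* are below 0 on every scale, and miR-128 runs from -0.47 to 0.32; between ages miR-9 runs from -1.13 to 0.15.

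In the mutants from E17 to p4, 4 of 5 members passed the adjusted p on at least 1 probe, with miR-9 and miR-9* lower and miR-124 and miR-128 higher, against 42.3% of all miRNAs. The median difference over the members was 0.11, against 0.03 over all miRNAs. Across the 16 arrays, which share the slides and the group differences above, the sign of Pearson's r parted the 2 arms of miR-9 from the rest. Pearson's r of miR-9 was 0.74 with miR-9*, and it was -0.60 with miR-124, -0.65 with miR-128 and -0.60 with miR-132. For miR-9* it was -0.48, -0.34 and -0.66 with these. Among miR-124, miR-128 and miR-132 themselves r was only 0.37 to 0.58. Among 280 expressed miRNAs the most alike to miR-9 were miR-92a (0.89), miR-15a (0.84) and miR-20b (0.83), and to miR-9* miR-15a (0.88), miR-20a (0.87) and miR-106b (0.85). miR-124 was closest to miR-182 (0.86), miR-129-3p (0.86) and miR-551b (0.83). miR-128 was closest to miR-193b (0.85), miR-433* (0.84) and miR-221 (0.84), and miR-132 to miR-154 (0.94), miR-299* (0.94) and miR-434-3p (0.93). These correlations are descriptions over arrays of 4 groups.

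A list of 25 further miRNAs described as enriched in neurons was set beside the 5. Of its members, 23 were on the array, 10 counted as expressed and 13 were detected on no array, miR-124*, miR-153 and miR-384-5p among the latter. None was called between the genotypes, against 21% of all miRNAs at p4 and 6.05% at E17. From E17 to p4 in the controls, 2 of the 10 expressed were called, both lower, against 20.3% of all miRNAs in either direction and 12.1% lower: miR-149 (-0.51, SE 0.0846, limma adjusted p = 0.00030) and miR-433 (-0.72, SE 0.106, limma adjusted p = 0.00011). Both were brighter on every E17 control array than on any p4 control array.

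Of the others, miR-212, with the seed of miR-132, differed by 0.12 between the genotypes at p4 (limma adjusted p = 0.153). miR-137, a miRNA of neuronal maturation, was higher by 0.32 in the p4 mutants (limma adjusted p = 0.0016), under the size limit. miR-218, known from motor neurons, differed by 0.17 (limma adjusted p = 0.102) and miR-7a by -0.04 (limma adjusted p = 0.404). miR-433 was higher by 0.29 in the p4 mutants (limma adjusted p = 0.0374), also under the size limit. None of the 10 expressed members of the list was called lower in p4 mutants, against 10.7% of all miRNAs. With so few members, this does not set miR-9 and miR-9* apart from the list.

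Lists for the cells of the nerve were read the same way, because fewer cells of a type and less RNA per cell cannot be told apart in whole nerves. For miR-338-3p, miR-204, miR-138, miR-30a and miR-146b, which the study chose from these samples and which are no independent evidence, the summed signal ran from 6495 to 7047 in p4 controls and from 420.2 to 723.5 in p4 mutants, and 5 of 5 were called lower. The summed signal of 6 neuronal miRNAs, including miR-9, miR-124, miR-128 and miR-132, ran from 207.3 to 221.8 in the p4 controls and from 120.5 to 184.9 in the p4 mutants. Of these 6, miR-9 alone was called, lower, against 10.7% of all miRNAs called lower. This sum holds the fall of miR-9 itself, from 58.4 to 64.5 in controls to 1.4 to 6.4 in mutants. By signal, miR-128 was also lower, miR-132 overlapped and miR-124 was higher in the p4 mutants. In those mutants 2 of 3 expressed fibroblast and smooth muscle miRNAs, 1 of 2 leukocyte, 1 of 2 endothelial and 1 of 3 erythroid miRNAs were called higher, and 0 of 4 skeletal muscle miRNAs, against 10.3% of all miRNAs called higher, a share that depends on the scaling as given above. Summed signals in p4 controls and p4 mutants ran from 3598 to 4867 and 3461 to 6141 for fibroblasts and smooth muscle, 218.8 to 331.1 and 268.1 to 405.7 for leukocytes, 1138 to 2381 and 926.9 to 1512 for endothelium, 205.1 to 1746 and 453.4 to 1218 for erythroid cells, and 259.4 to 572.4 and 197.6 to 987.6 for skeletal muscle. miR-145 of smooth muscle and miR-142-5p and miR-150 of leukocytes were detected on no array. The part of these cell types in the values of the 5 members was not tested.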

How the data were processed

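Total RNA (100 ng per mouse, per the methods) was labeled with Cy3 and hybridized to 1-colour Agilent mouse miRNA arrays of 2 slides, whose design the file headers give as 021828. The authors deposited the intensity of every spot from the software Agilent Feature Extraction 10.5.1.1 and a table of quantile normalized intensities, used as an alternative. Here log2 median signals were quantile normalized over 13000 non-control spots and averaged per probe, leaving out spots marked as outliers. Each member has 2 probes of 10 spots, and the one with the higher mean leads. A miRNA counted as expressed if it was detected on 0.5 or more of the arrays in any group. All 16 arrays entered 1 fit by limma 3.58.1 (R 4.3.3), in 5 comparisons, and p-values were adjusted over 681 probes. The methods' t-test was run as an alternative. A probe was well above background on an array where over 0.5 of its spots were. The "at least" folds set the brighter group against the higher of the dim probe and the lowest probe well above background on each array. They compare group means and carry no sampling error. The sum over miRNAs of background-subtracted gene signals was compared by exact permutation. In the fits, processed signals had a floor of 0.01 of the 75th percentile, or 0.05 as a further alternative, and of 2 scanner units without scaling, all set with values seen. Where labels do not name litters, p-values measure the spread between mice. No saturated spot was found for the members. Steps were tested on simulated data. The miRNAs, the lists and the tests were chosen with earlier results of these data known. The named miRNAs are the members with all probes, the 3 most alike per member and the neuron list. Sequences came from RefSeq, GRCm38.p6. Between 197 and 260 miRNAs were detected per array, and the number of arrays limits the precision.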

Additional observations from a re-analysis of the deposited data

Results flagged for a closer look

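In 40 groups of 4 arrays tested (10 probes in 4 groups), 2 arrays stood apart by Dixon's criterion, and chance marks about 1 group in 20. The brighter probe of miR-128 was at 6.83 in the p4 mutant of replicate 3, against 7.08 to 7.12 in the other 3 p4 mutants; without that array the p4 difference of miR-128 was 0.16 (limma adjusted p = 0.0514). The second probe of miR-132 was at 6.03 in the E17 control of replicate 2, against 5.98 in each of the others, and was not well above background there.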

How the results depend on the processing

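The members called numbered 2 at p4 and 0 at E17 between genotypes, 1 between ages in controls, 1 in mutants and 0 for the difference of the mutant effects. Over all 281 miRNAs these calls were 59, 17, 57, 30 and 27. In that order the counts of members were 4, 1, 2, 2 and 4 for processed signals scaled to the 75th percentile, with either floor. Calls rose there for all miRNAs too, to 172, 43, 158, 103 and 93 of 281, or 141, 41, 129, 89 and 85 with the higher floor. Without scaling the members called were 3 between ages in controls, 4 in mutants and 2 for the difference, and without normalization 2 between ages in controls and 2 for the difference. Over all miRNAs these calls were 197, 135 and 72 without scaling and 165 and 86 without normalization. Normexp, run on the median signal because the planned version on the mean signal was not run, gave 0 at p4 and 0 between ages in controls. Over all miRNAs it gave 41 and 38. A log2 limit of 1 gave 0 at p4, 0 between ages in controls and 0 in mutants, and no limit gave 4 at p4 and 4 between ages in mutants. Over all miRNAs these calls were 14, 13 and 6 with the limit of 1, and 168 and 119 with no limit. The methods' t-test and array weights each gave 0 between ages in controls, and the deposited intensities gave 1 for the difference. Over all miRNAs these calls were 51, 64 and 43. Normexp on the median, the unscaled signal and the higher floor were added after seeing the data. The sign turned between ages in controls for miR-9 (0.15 without normalization, 0.10 unscaled) and for miR-132 (0.70 unscaled). Medians over all probes were 0.25, 0.42 and -0.37 without normalization at E17, between ages in controls and for the difference, 0.25 at p4 for the 75th percentile, and 0.74 unscaled between ages in controls. Beyond these limits and scalings, the cause of the changes was not tested.

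Leaving out 1 array gave 1 to 2 members called at p4, 0 to 0 at E17, 0 to 1 between ages in controls, 1 to 1 in mutants and 0 to 2 for the difference. Over all 281 miRNAs these calls ran from 57 to 69, 8 to 23, 48 to 64, 29 to 37 and 23 to 42. The log2 differences of the total signal ran from -1.06 to -0.87 at p4 and from -0.31 to -0.07 at E17. The study used littermate pairs, but the replicate numbers did not show them (same-number correlations -0.52 to 0.09 at E17 and -0.28 to 0.46 at p4, and not every array correlated best with its own number). With the number as a replicate block the counts of members were 2, 0, 1, 1 and 0. Over all miRNAs they were 58, 19, 57, 30 and 29, in place of 59, 17, 57, 30 and 27. By the methods' t-test, 4, 1, 2 and 4 members passed unadjusted in the 4 group comparisons and 4, 0, 1 and 2 after Benjamini-Hochberg adjustment. Of all 281 miRNAs, 170, 117, 178 and 142 passed this t-test unadjusted in the same order. The 1 member left after adjustment between ages in controls was miR-128, and miR-9 did not pass there. The share of all miRNAs that passed this t-test after adjustment was not counted. Dim probes limit what can be said of miR-124 and miR-132.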
